A study of Mus musculus with 46 samples.

Results

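The 8 hSS2 tumours with disruption of Arid1a were set against the 8 hSS2 tumours with disruption of Arid1b, which are 16 of the 46 tumours of the series. Both groups were chosen by the floxed gene named in the sample titles, and each tumour was read as 1 library of bulk RNA. All mice carried hSS2, the Rosa26 allele that expresses human SS18::SSX2 once Cre has acted, in the homozygous state. Mice of the first group also carried Arid1a-fl/fl and those of the second Arid1b-fl/fl, while the 13 hSS2 control tumours had no floxed BAF gene and the remaining 8 hSS2 tumours were Pbrm1-fl. In every group, controls included, recombination was started by TATCre protein injected into the limb at 8 days of age. TATCre enters cells directly, so no promoter restricts the cell type in which the alleles recombine, and a bulk tumour also holds cells that never recombined. Males and females on a mixed C57Bl/6 and svJ background were used.

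BAF-family complexes slide and evict nucleosomes and come as canonical BAF (CBAF), PBAF and GBAF (also called non-canonical BAF). ARID1A and ARID1B are alternative subunits of CBAF, of which each complex holds one or the other, and neither is part of PBAF or GBAF. The fusion SS18::SSX, the driver of synovial sarcoma (SyS), takes the place of SS18 in CBAF and GBAF. The comparison asks whether tumours that lost one of the paired subunits differ in transcription from tumours that lost the other.

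The groups differ in more than the floxed gene. All Arid1a-fl mice were numbered 446 to 809 and all Arid1b-fl mice 1398 to 1838, so the range of mouse numbers and the floxed gene cannot be told apart in the direct comparison. Control mice fell in both ranges, with 5 numbered under 1000 (the lower range) and 4 numbered 1000 to under 2000 (the middle range), while the other 4 were numbered 2281 to 2418 (the upper range) and enter no range adjustment. A range-adjusted difference was therefore also computed, in which each floxed group was first compared with the control tumours of its own range. Libraries held 12681941 to 18263209 counts in Arid1a-fl and 13903950 to 21294657 in Arid1b-fl tumours. Arid1b-fl tumours 2, 5 and 6, control tumours 1, 9 and 12 and 2 Pbrm1-fl tumours stood apart in the median level of at least 1 chromosome. Arid1b-fl tumour 5 was also high in blood cell transcripts. These values are given beside the results that they touch.

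Cre removes exon 8 of Arid1a and exon 5 of Arid1b. In the GRCm38 (mm10) annotation exon 8 of Arid1a is chr4:133693758-133694070 on the minus strand and has 313 bases, or 4.8% of the transcript. Exon 5 of Arid1b is chr17:5242828-5243071 on the plus strand and has 244 bases, or 3.4% of the transcript. Each length leaves a remainder of 1 after division by 3, and each exon is in every coding transcript examined, 3 of Arid1a and 4 of Arid1b. The targeted exons are shown from 5′ to 3′ because they define the groups, with the first 300 bases of the Arid1a exon (chr4:133693771-133694070) and the whole Arid1b exon.
Arid1a exon 8: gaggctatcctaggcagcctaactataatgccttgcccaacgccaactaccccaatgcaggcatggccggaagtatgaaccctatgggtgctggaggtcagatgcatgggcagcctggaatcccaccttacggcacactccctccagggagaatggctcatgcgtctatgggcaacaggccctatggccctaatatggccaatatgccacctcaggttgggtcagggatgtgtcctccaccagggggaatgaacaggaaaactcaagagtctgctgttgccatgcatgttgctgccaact
Arid1b exon 5: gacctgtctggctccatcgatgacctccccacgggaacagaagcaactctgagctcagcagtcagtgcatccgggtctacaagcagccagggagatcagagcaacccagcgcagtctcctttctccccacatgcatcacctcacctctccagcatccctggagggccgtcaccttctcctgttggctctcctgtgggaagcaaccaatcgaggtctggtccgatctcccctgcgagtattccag
Counts per gene add up all exons, including the targeted exon wherever it is still present. The levels that follow thus measure mostly the transcript outside that exon and do not check the deletion itself.

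Arid1a (chr4:133679008-133756769, minus strand), the gene floxed in the first group, was lower there. Its level, in CPM (counts relative to the library total, scaled by the trimmed mean of M-values), was 229 at the lowest, 247 at the median and 276 at the highest in Arid1a-fl tumours. In Arid1b-fl tumours it was 297 at the lowest, 512 at the median and 612 at the highest. The groups did not overlap, although Arid1b-fl tumour 6 lay close to the Arid1a-fl tumours and the next lowest, tumour 8, stood at 444 CPM. The log2 fold change (log2FC), Arid1a-fl minus Arid1b-fl as throughout, was -0.99 (SE 0.14, adjusted p 0.000176). Adjusted p-values are from edgeR's quasi-likelihood test with Benjamini-Hochberg adjustment over the 20083 genes tested. The range-adjusted log2 difference was -0.61 (adjusted p 0.277), which did not pass. One control tumour of the lower range, number 9, was at 238 CPM and so as low as the Arid1a-fl tumours. Without it the range-adjusted difference was -0.74 (adjusted p 0.176).

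Arid1b (chr17:4994332-5347656, plus strand) separated the groups less clearly. It was 192 CPM at the lowest, 276 at the median and 311 at the highest in Arid1a-fl tumours, against 111, 186 and 347 CPM in Arid1b-fl tumours. The groups overlapped, although 4 of the 8 Arid1b-fl tumours lay below every Arid1a-fl tumour. Arid1b-fl tumour 4, labelled as Arid1b-disrupted, held the highest level of all 16. All 8 Arid1a-fl tumours were above the Arid1b-fl median. The log2FC was 0.43 (SE 0.20, adjusted p 0.373) and the range-adjusted difference 0.43 (adjusted p 0.652), and neither passed. In the control tumours of all ranges the median was 323 CPM. Against them Arid1b was at -0.80 in Arid1b-fl (adjusted p 0.145) and -0.37 in Arid1a-fl tumours (adjusted p 0.217), and neither passed. The level of Arid1b thus does not mark every library of its group, and tumour 4 is kept here as the library labelled Arid1b-fl.

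**Figure D1:**
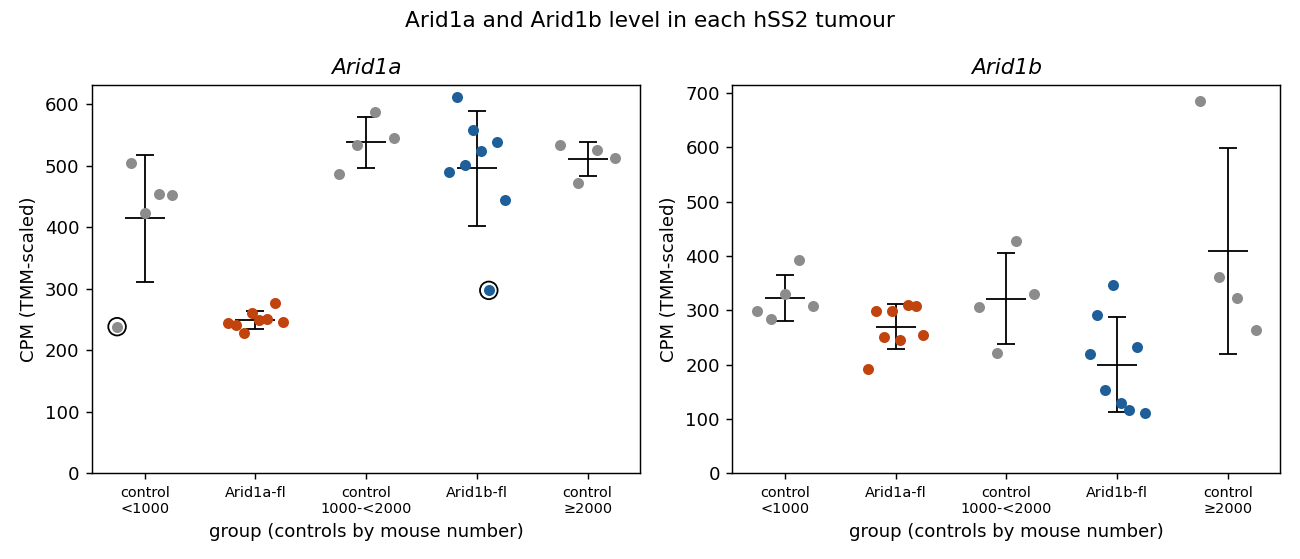
Level of Arid1a (left) and Arid1b (right) in CPM in each of the 16 floxed tumours and the 13 control tumours, the latter split by mouse number; horizontal bars are group means and whiskers are SD. Arid1a lay at 229 to 276 CPM in Arid1a-fl and 297 to 612 CPM in Arid1b-fl tumours, with circles around Arid1b-fl tumour 6 and control tumour 9, while the 2 groups overlapped for Arid1b.

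Few genes passed the test between the 2 disruptions. Of 20083 genes tested 20 were called (0.0996%), of which 14 were higher in Arid1a-fl tumours (0.0697%) and 6 lower (0.0299%). At an unadjusted p under 0.05 there were 2517 genes (12.5%), 949 higher (4.73%) and 1568 lower (7.81%). The median log2FC over all genes was -0.026 and 46.3% of genes had a value above 0. Levels of 15 genes (0.0747%) were higher in all 8 Arid1a-fl tumours than in any Arid1b-fl tumour, and levels of 9 genes (0.0448%) were lower in all. After adjustment for mouse number range edgeR called 0 genes, with 2238 (11.1%) at an unadjusted p under 0.05. Range-adjusted SEs were larger for each of the 20, for example 0.22 against 0.14 for Arid1a. Against the lower-range controls alone, Arid1a-fl tumours passed for Arid1a (-0.73, adjusted p 0.00478), Gm20075, Car12, Slc27a2, Itgb3bp, Lrp8, Ano3, Pcna-ps2 and Gpr39. The rest of the 20 did not pass there. Against the middle-range controls, Arid1b-fl tumours passed for none of the 20. The 20 were picked with the same floxed tumours, so these passes are not separate evidence. The shares of all genes that pass against own-range controls are not given here. DESeq2, run without range adjustment, called 215 (1.07%), of which 19 were among the 20. Without Arid1b-fl tumours 2, 5 and 6 there were 17 called genes, 11 of them among the 20, and without tumour 6 alone there were 76. Control tumours of the lower range against those of the middle range, which share their genotype, gave 38 called genes (0.189%). That count was unstable, since it ran from 0 to 531 when single control tumours were left out and was 0 at an adjusted p under 0.01. For scale, the Arid1a-fl tumours differed from the 13 control tumours in 637 genes (3.17%) and the Arid1b-fl tumours in 11 (0.0548%). The 13 control tumours span the lower, middle and upper ranges, so mouse number range and floxed gene are mixed in both counts.

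**Figure D2:**
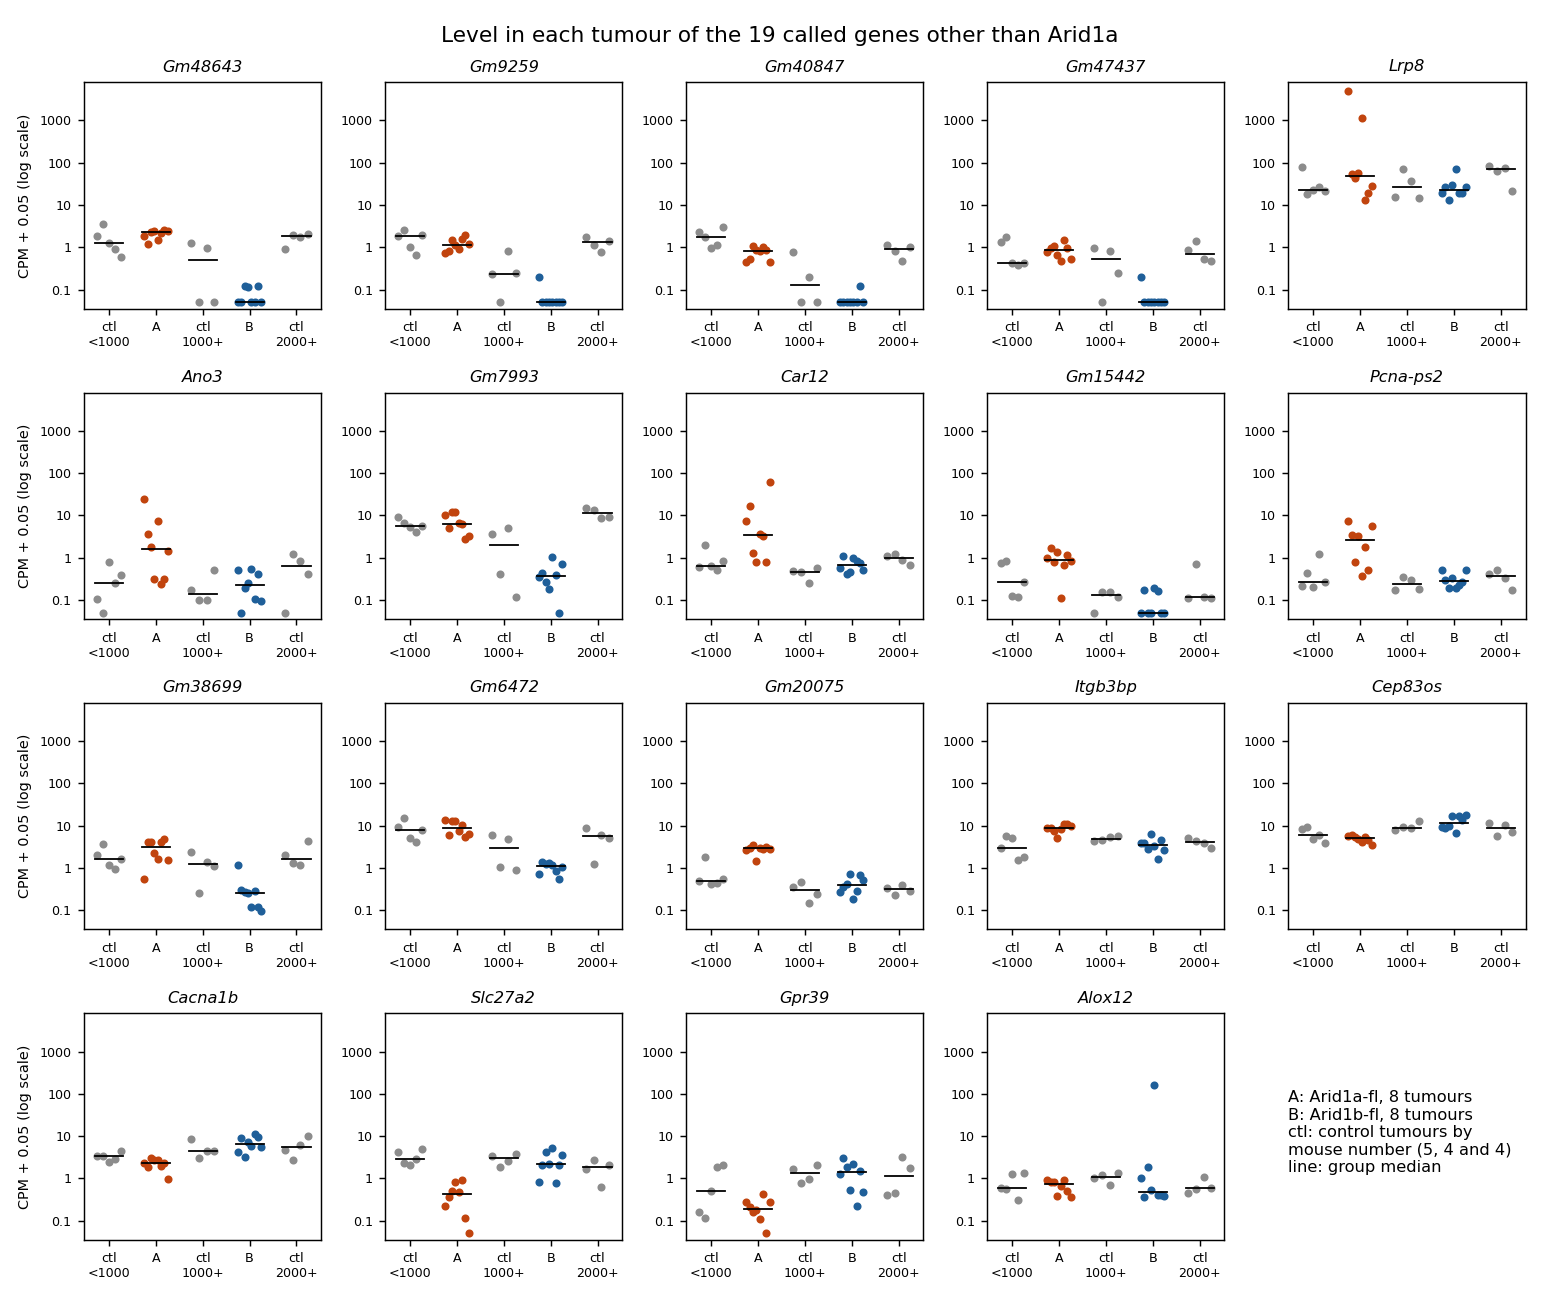
Level in each tumour, as CPM + 0.05 on a log axis, of the 19 called genes other than Arid1a, for Arid1a-fl (A), Arid1b-fl (B) and control tumours split by mouse number (ctl), with lines at group medians. Gm48643, Gm9259, Gm40847 and Gm47437 were at or near 0 in all 8 Arid1b-fl tumours, whereas Lrp8 and Ano3 were highest in Arid1a-fl tumours 1 and 5 and Alox12 in Arid1b-fl tumour 5 alone.

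Among protein-coding genes other than Gm20075, 4 were higher in Arid1a-fl tumours. Car12 (chr9:66713686-66766845), a membrane-bound carbonic anhydrase on the hypoxia list, was 0.729 CPM at the lowest, 3.44 at the median and 62.8 at the highest in Arid1a-fl tumours, against 0.365, 0.620 and 1.06 CPM in Arid1b-fl tumours. In 6 of the 8 Arid1a-fl tumours it exceeded every Arid1b-fl tumour, while the other 2 lay within the range of the Arid1b-fl tumours. The log2FC was 4.18 (SE 0.69, adjusted p 0.00201), it ranged from 2.87 to 4.36 when single tumours were left out, and the range-adjusted difference was 3.05 (adjusted p 0.281). Itgb3bp (chr4:99765402-99929813), a centromere protein also known as CENP-R, was 5.04 CPM at the lowest, 8.93 at the median and 10.9 at the highest in Arid1a-fl tumours. In Arid1b-fl tumours it was 1.61, 3.55 and 6.36 CPM, and 1 tumour of each group overlapped the other. Its log2FC was 1.28 (SE 0.26, adjusted p 0.0314), with a range-adjusted difference of 1.81 (adjusted p 0.161). It passed in 9 of the 16 fits without 1 tumour (highest adjusted p 0.0683). Itgb3bp overlaps Efcab7 on the opposite strand, whose log2FC was 0.91 (adjusted p 0.0613), and the strand setting of the counting was not stated.

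Lrp8 and Ano3 were highest in the same pair of tumours, on which Lrp8 rested and Ano3 did not alone. Lrp8 (chr4:107802261-107876840), a receptor for reelin and apolipoprotein E, reached 4878 CPM in Arid1a-fl tumour 1 and 1151 CPM in Arid1a-fl tumour 5. The other Arid1a-fl tumours held 13.3 to 55.9 CPM and the Arid1b-fl tumours 13.3 to 71.1 CPM, so apart from that pair the groups overlapped. The third highest of all 37 hSS2 tumours, control tumour 1, had 83.6 CPM. The log2FC was 4.79 (SE 0.93, adjusted p 0.0134), and without tumour 1 it was 2.79 (adjusted p 0.129). The range-adjusted difference was 4.84 (adjusted p 0.197). Magoh, an exon junction complex gene that begins 77494 bases from the start of Lrp8, was also highest of all hSS2 tumours in the same pair, at 117 CPM in tumour 1 and 38.5 CPM in tumour 5. Cpt2, which begins 101720 bases away, was 40.7 and 27.3 CPM in these tumours against 23.6 to 30.5 CPM in the other Arid1a-fl tumours. Ano3 (chr2:110655201-110950923), a membrane protein of the anoctamin family, was likewise highest in tumours 1 and 5, at 23.9 and 7.13 CPM, against a highest Arid1b-fl level of 0.491 CPM. Arid1a-fl tumours 2, 3 and 8 also exceeded that level, at 3.49, 1.70 and 1.40 CPM, and the other 3 Arid1a-fl tumours did not. The log2FC of Ano3 was 4.45 (SE 0.94, adjusted p 0.0399), at the lowest 3.24 without tumour 1 (adjusted p 0.147), and it passed in 7 of the 16 fits that each left out 1 tumour. Its range-adjusted difference was 3.81 (adjusted p 0.378).

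Apart from Arid1a, 5 genes were lower in Arid1a-fl tumours. Slc27a2 (chr2:126552407-126588243), which activates very long chain fatty acids for uptake and peroxisomal use, was 0 CPM at the lowest, 0.375 at the median and 0.860 at the highest in Arid1a-fl tumours. In Arid1b-fl tumours it was 0.750, 2.09 and 5.19 CPM, so that 6 of the 8 Arid1a-fl tumours lay below every Arid1b-fl tumour. The log2FC was -2.69 (SE 0.49, adjusted p 0.00801), it passed in each of the 16 fits without 1 tumour, and the range-adjusted difference was -2.89 (adjusted p 0.161). Against the 13 control tumours Slc27a2 fell by 2.75 in Arid1a-fl tumours (adjusted p 0.00313), and the value in Arid1b-fl tumours was -0.057 (adjusted p 0.997). The 2 comparisons share the control tumours. Control levels of the lower range (2.03 to 4.90 CPM) and of the middle range (1.79 to 3.64 CPM) were above the highest Arid1a-fl level, whereas control tumour 3, of the upper range, had 0.564 CPM and lay within the Arid1a-fl tumours.

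Cacna1b (chr2:24603887-24763152), the pore subunit of N-type calcium channels, was 0.933 to 2.95 CPM (median 2.33) in Arid1a-fl and 3.21 to 11.4 CPM (median 6.36) in Arid1b-fl tumours. The groups did not overlap, and the log2FC was -1.65 (SE 0.35, adjusted p 0.0399), while the range-adjusted difference was -1.03 (adjusted p 0.497). Gpr39 (chr1:125676995-125873862), a zinc-sensing receptor, was at most 0.368 CPM in Arid1a-fl tumours and 0.173 to 3.0 CPM in Arid1b-fl tumours, with a log2FC of -2.99 (SE 0.65, adjusted p 0.0494) and a range-adjusted difference of -2.42 (adjusted p 0.359). Both calls were easily lost, since Cacna1b passed in 7 and Gpr39 in 4 of the 16 fits without 1 tumour. Cep83os (chr10:94671025-94688576), a non-coding transcript beside Cep83, was 3.50 to 6.04 CPM (median 5.05) in Arid1a-fl and 6.87 to 18 CPM (median 11.7) in Arid1b-fl tumours. These groups did not overlap either, and the log2FC was -1.35 (SE 0.26, adjusted p 0.0134), against -0.77 (adjusted p 0.505) after range adjustment. Cep83 itself, a centriole gene, stood at 37.2 CPM in Arid1a-fl and 37.4 CPM in Arid1b-fl tumours as means. Alox12 (chr11:70241457-70255353), the platelet-type lipoxygenase, had the log2FC farthest below 0, -5.01 (SE 1.07, adjusted p 0.0425), and rested on 1 tumour. It was 160 CPM in Arid1b-fl tumour 5 and at most 1.82 CPM in every other hSS2 tumour, and without that tumour the log2FC was -0.02 (adjusted p 0.994).

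The gene models Gm48643, Gm9259, Gm47437, Gm40847, Gm38699, Gm6472 and Gm7993, which are annotated without a known protein function, shared a pattern in which Arid1b-fl tumours were low. Of these 7, the first 2 came from the naming rule and the others were chosen after their values were seen. Gm48643 (chr12:19865126-19865495) was 1.15 to 2.53 CPM in Arid1a-fl tumours and 0 in 5 of the 8 Arid1b-fl tumours, where the other 3 had 1 count each. Summed over the groups it had 256 counts against 3, a ratio of 81.9 with an exact 95% counting interval of 27.7 to 400 (log2FC 5.96, SE 0.85, adjusted p 0.000239). Gm9259 (chr12:19824891-19830372) had 151 counts against 2, a ratio of 72.4 (19.7 to 604; adjusted p 0.000773). In both, every Arid1a-fl tumour was above every Arid1b-fl tumour. Gm47437 had 109 counts against 2, a ratio of 52.3 (14.1 to 437; adjusted p 0.00111), and Gm40847 91 against 1, a ratio of 87.3 (15.3 to 3490; adjusted p 0.00736). These intervals cover counting error only.

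Gm6472 and Gm7993 were better covered. Gm6472, on chromosome X, was 5.33 to 13.7 CPM (median 8.94) in Arid1a-fl and 0.496 to 1.38 CPM (median 1.08) in Arid1b-fl tumours, a log2FC of 3.23 (SE 0.50, adjusted p 0.000773). Gm7993, on chromosome 5, was 2.66 to 12.1 CPM in Arid1a-fl and 0 to 0.982 CPM in Arid1b-fl tumours, a log2FC of 4.21 (SE 0.71, adjusted p 0.00212). Neither pair of groups overlapped. Gm38699 overlapped in 1 Arid1a-fl tumour and had a log2FC of 3.36 (SE 0.63, adjusted p 0.0113). Low levels were also found without the Arid1b-fl allele. Control tumours 6 and 8, of the same mouse number range as the Arid1b-fl tumours, did not exceed the highest level of the Arid1b-fl tumours for Gm48643, Gm40847, Gm38699, Gm6472 and Gm7993, and control tumour 6 was so for Gm9259 and Gm47437 as well. Pbrm1-fl tumour 5, of another range, was as low in all 7, and further control and Pbrm1-fl tumours were so for Gm38699 and Gm6472. After range adjustment the log2 differences were smaller in all 7, at 4.42 for Gm48643, 3.21 for Gm9259, 4.34 for Gm47437 and 2.53 for Gm40847. They were 1.82 for Gm6472, 2.82 for Gm7993 and 2.76 for Gm38699, and adjusted p-values were 0.161 to 0.400.

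Most of these gene models resemble genes of 1 stretch of chromosome 12. Among protein-coding transcripts the closest was on chromosome 12 for 6 of the 7, with starts between 17544794 and 28630854, the exception being Gm38699. Each of the 7 matched 22 to 132 genes, and non-coding or pseudogene matches, which may be closer, were left aside. This stretch also holds 5 called genes, all of them among the 7. Gm6472 was 99.4% identical to Rps7, a ribosomal protein gene, over 651 bases, and Gm7993 was 95.7% identical to Odc1, the ornithine decarboxylase of polyamine synthesis, over 1388 bases. Gm47437 was 96.0% identical over 126 bases to Asap2, a regulator of ARF GTPases. Windows of 60 bases from the aligned parts are shown because reads of copy and relative differ only at the bases in capitals.
Gm6472, chrX:152910061-152910120, minus strand: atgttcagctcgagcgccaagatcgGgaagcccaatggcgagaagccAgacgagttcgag
Rps7, chr12:28635595-28635654, minus strand: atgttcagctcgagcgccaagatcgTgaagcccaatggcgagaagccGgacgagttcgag
Gm7993, chr5:95975018-95975077, plus strand: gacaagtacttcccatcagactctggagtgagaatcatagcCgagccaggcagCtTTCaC
Odc1, chr12:17549451-17549510, plus strand: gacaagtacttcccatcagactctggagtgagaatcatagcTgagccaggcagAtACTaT
Gm47437, chr12:23800581-23800640, minus strand: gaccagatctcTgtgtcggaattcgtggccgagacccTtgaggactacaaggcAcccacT
Asap2, chr12:21112050-21112109, plus strand: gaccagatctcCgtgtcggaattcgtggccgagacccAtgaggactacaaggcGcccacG
The relatives themselves did not pass: Rps7 had a log2FC of -0.35 (adjusted p 0.492), Odc1 -0.052 (adjusted p 0.956) and Asap2 0.28 (adjusted p 0.425). Of 66 genes tested in the stretch 15 were higher and 9 lower at an unadjusted p under 0.05, against 4.73% and 7.81% of all genes. The 66 include the gene models and relatives that set its bounds. Of its 23 protein-coding genes 2 were higher and 4 lower, with a median log2FC of -0.05. How reads that match several places were counted was not stated, so the levels of copies are uncertain, and the mouse strain of origin of this stretch was not tested.

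Copies of genes elsewhere were also higher in Arid1a-fl tumours. Gm20075 (chr13:96079216-96081376), annotated as protein-coding and lying within Sv2c, shared the smallest adjusted p of all genes with Arid1a. It was 1.39 CPM at the lowest, 2.87 at the median and 3.40 at the highest in Arid1a-fl tumours and 0.140, 0.339 and 0.684 CPM in Arid1b-fl tumours, without overlap. The log2FC was 2.80 (SE 0.38, adjusted p 0.000176), and it passed in each of the 16 fits without 1 tumour, whereas the range-adjusted difference was 1.39 (adjusted p 0.337). Its transcript was 99.7% identical to that of Btf3l4, a transcription factor-like gene on chromosome 4, over 2110 bases. All 474 aligned coding bases were the same, and Btf3l4 itself had a log2FC of 0.21 (adjusted p 0.521). The overlapping Sv2c, on the same strand, had means of 31.4 CPM in Arid1a-fl and 15.1 CPM in Arid1b-fl tumours. Its log2FC was 1.05 (adjusted p 0.39), and whether reads of Sv2c add to the Gm20075 count was not tested. Against the 13 control tumours Gm20075 rose by 2.67 in Arid1a-fl tumours (adjusted p 1.4e-05). Against the control tumours of the lower range alone it rose by 1.98 (adjusted p 0.00404). Control tumour 10, of that range, had 1.73 CPM and so lay above the lowest Arid1a-fl tumour.

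Gm15442 and Pcna-ps2, which were chosen after their values were seen, had the same direction. Gm15442 had 118 counts in Arid1a-fl and 6 in Arid1b-fl tumours, a ratio of 18.9 (8.41 to 52.5; log2FC 4.02, adjusted p 0.0134), and was 99.7% identical over 938 bases to the zinc finger gene Zfp114. Pcna-ps2 was 0.313 to 7.43 CPM in Arid1a-fl and 0.140 to 0.470 CPM in Arid1b-fl tumours, a log2FC of 3.38 (SE 0.65, adjusted p 0.0134). It was 99.2% identical over 781 bases to Pcna, the replication clamp. Each pair is shown over 60 bases with differing bases in capitals.
Gm15442, chr3:78487804-78487863, minus strand: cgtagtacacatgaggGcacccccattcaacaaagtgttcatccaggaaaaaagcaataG
Zfp114, chr7:24181005-24181064, plus strand: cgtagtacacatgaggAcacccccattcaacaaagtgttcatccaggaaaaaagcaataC
Pcna-ps2, chr19:9283496-9283555, plus strand: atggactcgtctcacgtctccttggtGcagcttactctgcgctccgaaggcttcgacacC
Pcna, chr2:132252860-132252919, minus strand: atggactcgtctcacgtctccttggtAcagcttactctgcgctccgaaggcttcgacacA
Pcna had a log2FC of 0.55 (adjusted p 0.360) and a mean of 76.8 CPM in Arid1a-fl and 52.4 CPM in Arid1b-fl tumours, and Zfp114 one of 0.033 (adjusted p 0.970). After range adjustment the difference of Gm15442 was 1.71 (adjusted p 0.641) and that of Pcna-ps2 2.38 (adjusted p 0.433).

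The median level of a chromosome's genes was shifted in single tumours. The shift of a chromosome in a tumour was the median, over its well-expressed genes, of the log2 difference from the control median. It does not tell a shift of the whole chromosome from a shift of part of it. A shift of at least 0.25 in either direction was found in 3 of 8 Arid1b-fl, 0 of 8 Arid1a-fl, 3 of 13 control and 2 of 8 Pbrm1-fl tumours. Chromosome 1 was shifted by 0.42 in Arid1b-fl tumour 2 and by 0.33 in tumour 5, and chromosome 4 by -0.59 in tumour 6. Chromosome 1 held 219 genes lower (16.6%) and 19 higher (1.44%) in Arid1a-fl tumours at an unadjusted p under 0.05, of 1323 tested, against 7.81% and 4.73% of all genes. Without Arid1b-fl tumours 2, 5 and 6 these became 166 (12.1%) and 53 (3.87%), against 9.22% and 7.71% of all genes. On chromosome 4 the share higher was 9.18% with these tumours and 9.5% without them, and the share lower 5.91% and 9.41%. Chromosome 6 held 110 genes lower (10.7%) and 24 higher (2.34%), and its shift stayed within -0.17 to 0.08 in both floxed groups. Whether the shifts underlie these counts was not tested. DNA copy number was not measured.

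Arid1a lies on chromosome 4. In Arid1b-fl tumour 6 it was 0.76 below the control median on the log2 scale, of which the chromosome's shift was -0.59 and the remainder -0.18. In the 8 Arid1a-fl tumours the remainder was -1.18 to -0.97, and in the Arid1b-fl tumours -0.25 to 0.20, without overlap. Control tumour 1 was shifted on chromosomes 5, 11, 15 and 17 by 0.39 to 0.45 and control tumour 12, of the lower range, on chromosome 6 by 0.27. Control tumour 9 had a chromosome 4 shift of -0.35, a chromosome 14 shift of -0.68 and a remainder of -0.74 for Arid1a. Within 20 Mb of Arid1a 564 other genes were tested and 0 were called by edgeR, with 8.69% higher and 6.21% lower at an unadjusted p under 0.05. Within 20 Mb of Arid1b 204 were tested and 0 called, with 4.41% higher and 2.94% lower.

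**Figure D3:**
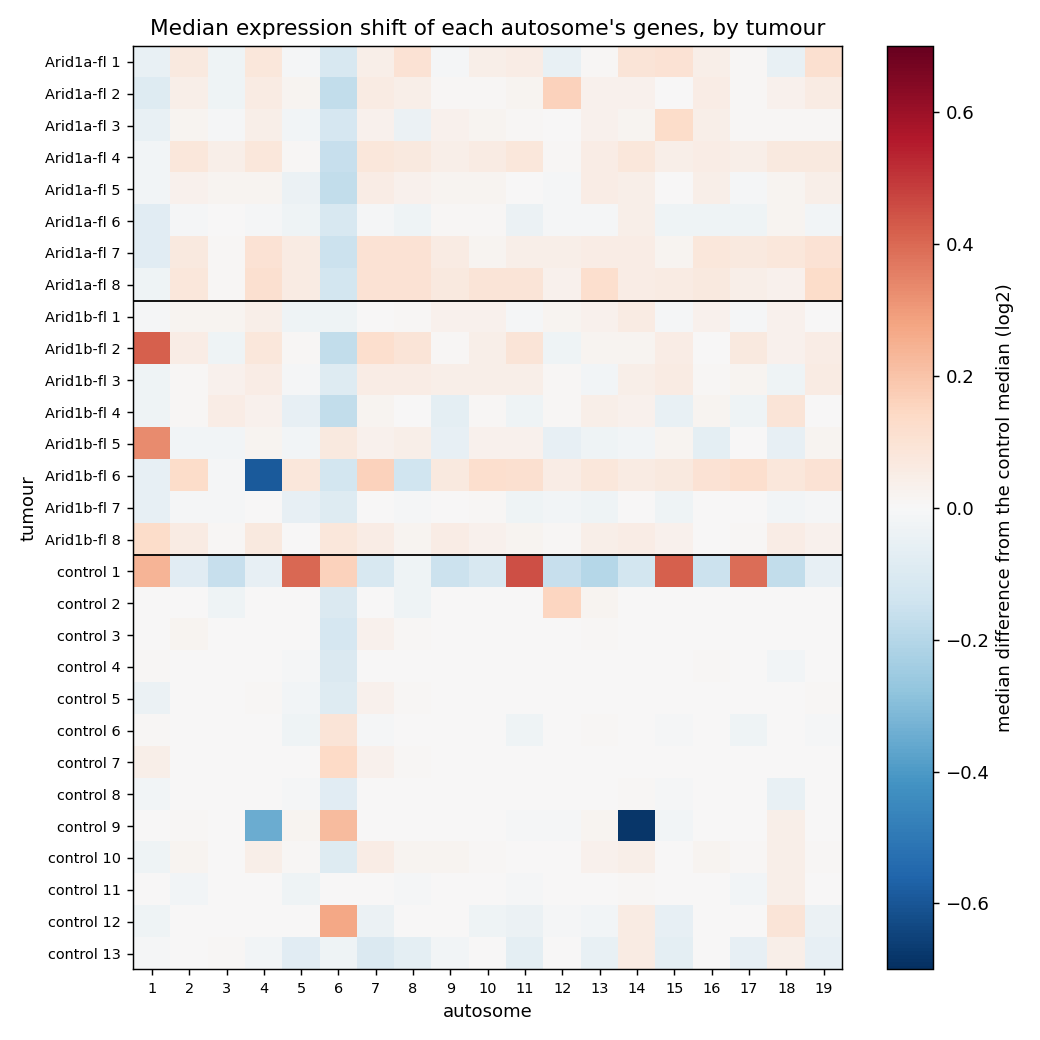
Median shift of each autosome's genes from the control median (colour, log2 scale), by tumour (rows) and autosome (columns), for the 16 floxed and the 13 control tumours. Arid1b-fl tumours 2 and 5 stood out on chromosome 1 (0.42 and 0.33) and tumour 6 on chromosome 4 (-0.59), while no Arid1a-fl tumour reached 0.25.

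Other subunits of the BAF family differed little. Of 28 tested members 1 was called, Arid1a itself, and the median log2FC was 0.02. At an unadjusted p under 0.05, 4 were higher (14.3%) and 2 lower (7.14%), against 4.73% and 7.81% of all genes. Besides Arid1b the higher were Actl6a, an actin-related core subunit (log2FC 0.36, adjusted p 0.283), Brd7 of PBAF (0.22, adjusted p 0.325) and Ss18, the fusion's partner (0.22, adjusted p 0.393). The other lower member was Ss18l1, the paralog of Ss18, at -0.28 (adjusted p 0.360). The reads of the human fusion transcript share sequence with mouse Ss18, so its count may hold both. The ATPases Smarca4 and Smarca2 had log2FCs of 0.11 (SE 0.13) and -0.056 (SE 0.24). Among CBAF members Dpf2 was 0.028 (SE 0.084), and the GBAF members Brd9, Bicra and Bicral were 0.013 (SE 0.074), -0.11 (SE 0.11) and 0.096 (SE 0.13).

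DNA replication genes had estimates above 0 throughout, and 0 were called over all genes. Of 30 members 12 (40%) were higher and 0 lower at an unadjusted p under 0.05, 30 had a log2FC above 0, and the median was 0.58 against -0.026 over all genes. Orc1, of the origin recognition complex, was 2.58 to 14.7 CPM (median 4.88) in Arid1a-fl and 1.21 to 4.56 CPM (median 2.58) in Arid1b-fl tumours, a log2FC of 1.32 (SE 0.41, adjusted p 0.182). The replicative helicase genes Gins4 (0.41, adjusted p 0.191) and Mcm4 (0.73, adjusted p 0.227) followed. The score of the list, its mean log2 CPM, was 3.74 to 5.79 in Arid1a-fl and 3.69 to 4.79 in Arid1b-fl tumours, so the groups overlapped. After range adjustment the median was 0.87 and 5 members were higher at an unadjusted p under 0.05, against 4.16% of all genes. The 26 proliferation genes, mostly of mitosis, had a median of 0.67 with 26 above 0, yet 0 were called or reached an unadjusted p under 0.05. For Ccna2, cyclin A, the log2FC was 0.82 (SE 0.44, adjusted p 0.436). Of 33 cell cycle and apoptosis regulators 5 were higher (15.2%, against 4.73% of all genes) and 0 lower at that level. These were Bak1 (0.40), Cdk2 (0.45), Cdkn2a (1.20), Ccne2 (0.74) and Ccne1 (0.86), with adjusted p-values of 0.169 to 0.384.

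Epithelial genes lay in the opposite direction. SyS can form gland-like epithelial structures, and 27 genes of epithelial adhesion and keratins were tested, of which 0 were called. By their estimates 27 were below 0, with a median of -1.11, and 12 (44.4%) were lower at an unadjusted p under 0.05. St14, the membrane protease matriptase, was 3.40 to 37.4 CPM (median 14.9) in Arid1a-fl and 6.46 to 260 CPM (median 35.7) in Arid1b-fl tumours, a log2FC of -1.67 (SE 0.50, adjusted p 0.159). For Cgn, the tight junction protein cingulin, the log2FC was -1.07 (SE 0.36, adjusted p 0.227). The list score was -0.05 to 2.96 in Arid1a-fl and 0.32 to 4.09 in Arid1b-fl tumours, and the groups overlapped. The range-adjusted median was -1.31, with 8 lower at an unadjusted p under 0.05, against 6.98% of all genes. Of 27 extracellular matrix genes 3 were lower (11.1%, against 7.81% of all genes) at an unadjusted p under 0.05, with a list median of -0.71. They were Thbs1 (-1.79, adjusted p 0.236), Col1a2 (-2.08, adjusted p 0.261) and Bgn (-1.66, adjusted p 0.382). The range-adjusted median of the matrix list was -0.37, with 0 members at an unadjusted p under 0.05.

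**Figure D4:**
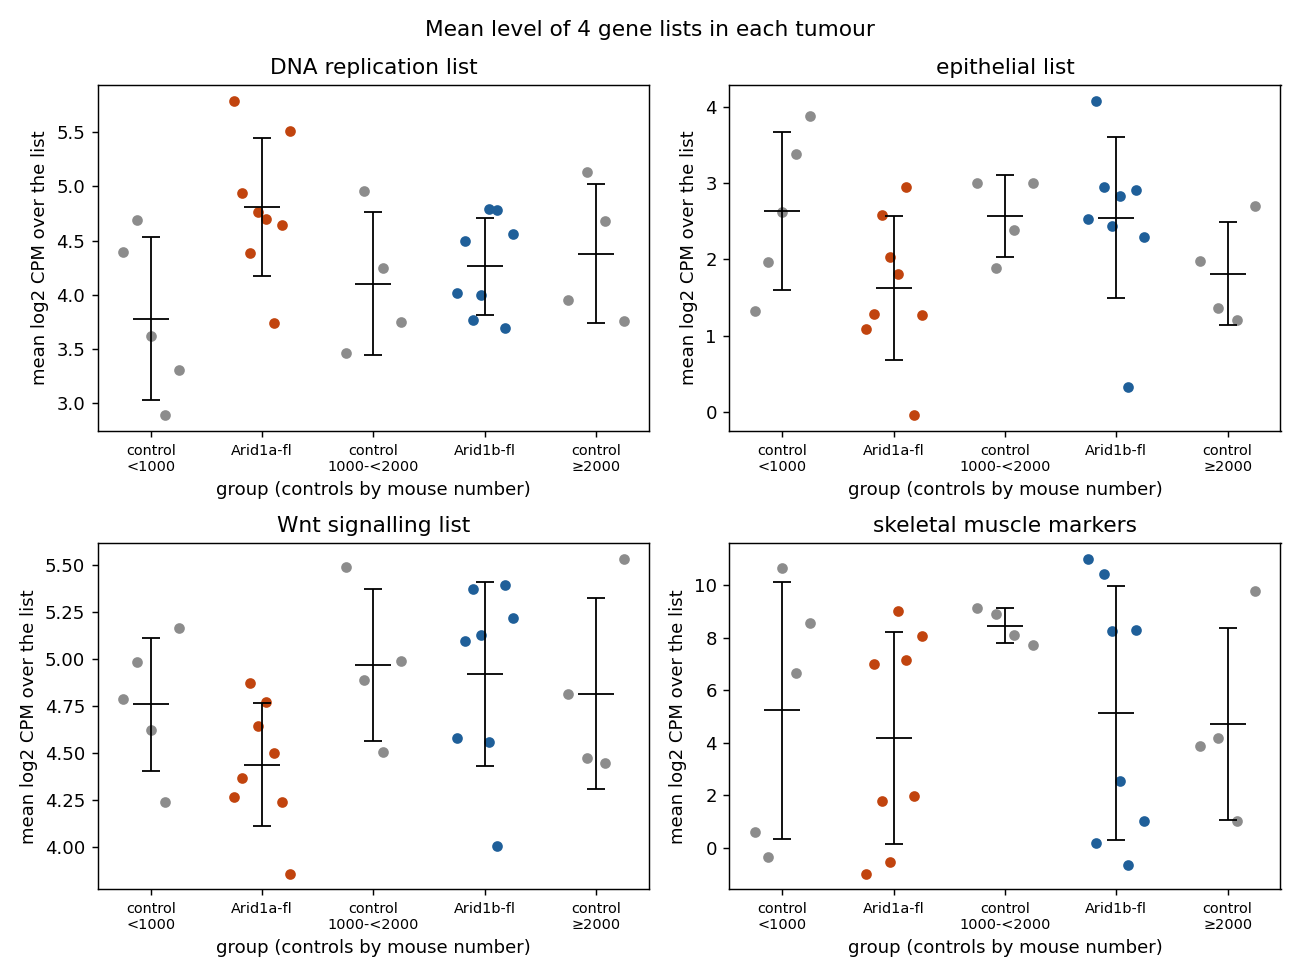
Mean log2 CPM over the DNA replication, epithelial, Wnt signalling and skeletal muscle marker lists in each tumour (points), with group means (bars) and SD (whiskers), for the floxed groups and control tumours by mouse number. Scores overlapped in all panels; DNA replication ran from 3.74 to 5.79 in Arid1a-fl and from 3.69 to 4.79 in Arid1b-fl tumours.

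Signalling lists had 0 called members, and their shares at an unadjusted p under 0.05 stand against 4.73% higher and 7.81% lower of all genes. Of 38 Wnt genes 33 were below 0 with a median of -0.49, and 1 was higher (2.63%) and 7 lower (18.4%). Among 20 ligands and receptors 4 were lower and 1 higher at an unadjusted p under 0.05. The higher was Wnt11 at 0.84 (SE 0.34, adjusted p 0.314), and Wnt10b was among the lower at -1.57 (SE 0.52, adjusted p 0.221). Among 18 inhibitors and targets 3 were lower and 0 higher. They were Wif1, a secreted Wnt inhibitor, at -2.75 (SE 0.68, adjusted p 0.0859), Sfrp2, another, at -1.49 (SE 0.47, adjusted p 0.191), and Rnf43, a ligase that removes Wnt receptors, at -1.13 (SE 0.38, adjusted p 0.229). Wif1 was 0.400 to 3.93 CPM (median 1.82) in Arid1a-fl and 0.692 to 24.3 CPM (median 11.3) in Arid1b-fl tumours, and all 8 Arid1a-fl tumours were below the Arid1b-fl median. After range adjustment the median of the Wnt list was -0.24. Of the ligands and receptors 0, and of the inhibitors and targets 4, were then lower at an unadjusted p under 0.05. Of 24 FGF genes 2 (8.33%), both ligands, were lower at an unadjusted p under 0.05, a share near that of all genes, Fgf7 (-1.82, adjusted p 0.387) and Fgf13 (-0.92, adjusted p 0.392), and the list median was 0.03. Of 33 TGF-beta and BMP genes 1 was higher (3.03%), the ligand Tgfb3 (0.99, adjusted p 0.310), and 4 were lower (12.1%), near the shares of all genes. Among the lower were the receptor Bmpr2 (-0.32, adjusted p 0.261), the inhibitory Smad7 (-0.41, adjusted p 0.276) and the BMP antagonist Nog (-0.42, adjusted p 0.370).

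Developmental regulators went both ways, again with 0 called. Of 48 transcription factors 5 were higher (10.4%) and 5 lower (10.4%) at an unadjusted p under 0.05, against 4.73% and 7.81% of all genes, and the median was -0.09. Pax6, a neural and eye regulator, was 0.311 to 282 CPM (median 24) in Arid1a-fl and 0.462 to 27.8 CPM (median 11.8) in Arid1b-fl tumours, with a log2FC of 2.27 (SE 0.85, adjusted p 0.268). Also higher were Six2 (2.12), Twist2 (1.91) and Irx4 (0.95), with adjusted p-values of 0.274 to 0.382. The lower were Pax9 (-4.30, adjusted p 0.130), the cartilage regulator Sox9 (-1.31, adjusted p 0.131), Prrx2 (-2.07, adjusted p 0.145), Zic4 (-4.10, adjusted p 0.221) and Zic1 (-3.18, adjusted p 0.266). Sox9 was 5.05 to 35.2 CPM (median 25.4) in Arid1a-fl and 25.6 to 129 CPM (median 43.9) in Arid1b-fl tumours, with overlap. Of 38 HOX genes, which set position along the body and limb, 34 were above 0 with a median of 0.45, and 1 (2.63%), Hoxd1, was higher at an unadjusted p under 0.05 (1.97, adjusted p 0.287). Of 32 Polycomb subunits, with shares of 6.25% each way near those of all genes, 2 were higher, Rbbp4 of PRC2 (0.47, adjusted p 0.159) and Phc2 of PRC1 (0.25, adjusted p 0.286), and 2 lower, Pcgf5 of PRC1 (-0.99, adjusted p 0.314) and Ezh1 of PRC2 (-0.33, adjusted p 0.393). Of 26 neuronal genes 6 were lower (23.1%) and 0 higher, and the median was -0.28.

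Metabolic and immune lists were next. Of 35 genes of peroxisomes and fatty acid oxidation 1 was called, Slc27a2, and 5 were lower at an unadjusted p under 0.05 (14.3%, against 7.81% of all genes), with a median of -0.11. The others were Pex11a, a peroxisome division factor (-0.82, SE 0.20, adjusted p 0.0866), Acadl (-0.49, adjusted p 0.284), Cpt1b (-1.46, adjusted p 0.378) and Abcd2 (-0.92, adjusted p 0.381). Pex11a was 1.32 to 5.59 CPM in Arid1a-fl and 4.56 to 10.1 CPM in Arid1b-fl tumours. Of 28 glycolysis and hypoxia genes Car12 was called, and P4ha2 (-0.99), Car9 (-1.34), Hk2 (-1.82) and Pfkm (-1.03) were lower at an unadjusted p under 0.05 (14.3%), so that Car12 moved against the list median of -0.25. Of 10 MHC class I genes 6 (60%) were lower at that level and 0 were called. They were led by Nlrc5, the transactivator of class I genes (-1.44, SE 0.53, adjusted p 0.266), and Tap1, a peptide transporter (-0.51, SE 0.21, adjusted p 0.328). The range-adjusted median of the class was -0.36 with 0 members at that level, beside -0.60 without the adjustment. Of 26 interferon response genes 5 were lower (19.2%) and 0 higher, namely Rsad2 (-2.98, adjusted p 0.164), Ifih1 (-0.80, adjusted p 0.182), Oas3 (-2.48, adjusted p 0.288), Irf9 (-0.45, adjusted p 0.315) and Igtp (-0.69, adjusted p 0.330). The interferon median was -0.56, and -0.17 after range adjustment, where 2 members were lower at an unadjusted p under 0.05. Of 23 immediate early genes 4 were lower (17.4%), Nr4a2 (-1.78, SE 0.45, adjusted p 0.0897), Egr3 (-1.17), Fosb (-1.53) and Dusp1 (-0.86), and Myc was higher (1.54, SE 0.47, adjusted p 0.180). Myc was 9.32 to 148 CPM (median 12.2) in Arid1a-fl and 7.5 to 20.8 CPM (median 12.2) in Arid1b-fl tumours, so its difference lay in the upper end and not at the median.

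The study's own gene lists were also read. SAT genes (sarcomagenesis activated transcription) and MAT genes (maintained active transcription) were defined by its authors from other data, measured in single cells. Of 184 SAT genes 0 were called, with 7 higher (3.80%) and 25 lower (13.6%) at an unadjusted p under 0.05 against 4.73% and 7.81% of all genes, and a median of -0.17. After range adjustment the median was -0.01, with 5 higher and 8 lower. Car14, a carbonic anhydrase, was 78.9 to 1072 CPM (median 144) in Arid1a-fl and 9.58 to 190 CPM (median 31) in Arid1b-fl tumours, a log2FC of 2.55 (SE 0.67, adjusted p 0.110). All 8 Arid1a-fl tumours were above the Arid1b-fl median for Car14. Of the lower SAT genes Lypd6b (-1.75, SE 0.50, adjusted p 0.155) and Cartpt, a neuropeptide precursor (-3.81, SE 1.20, adjusted p 0.193), stood beside St14. Of 353 MAT genes 0 were called, 17 were higher (4.82%) and 25 lower (7.08%), and the median was -0.01.

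**Figure D5:**
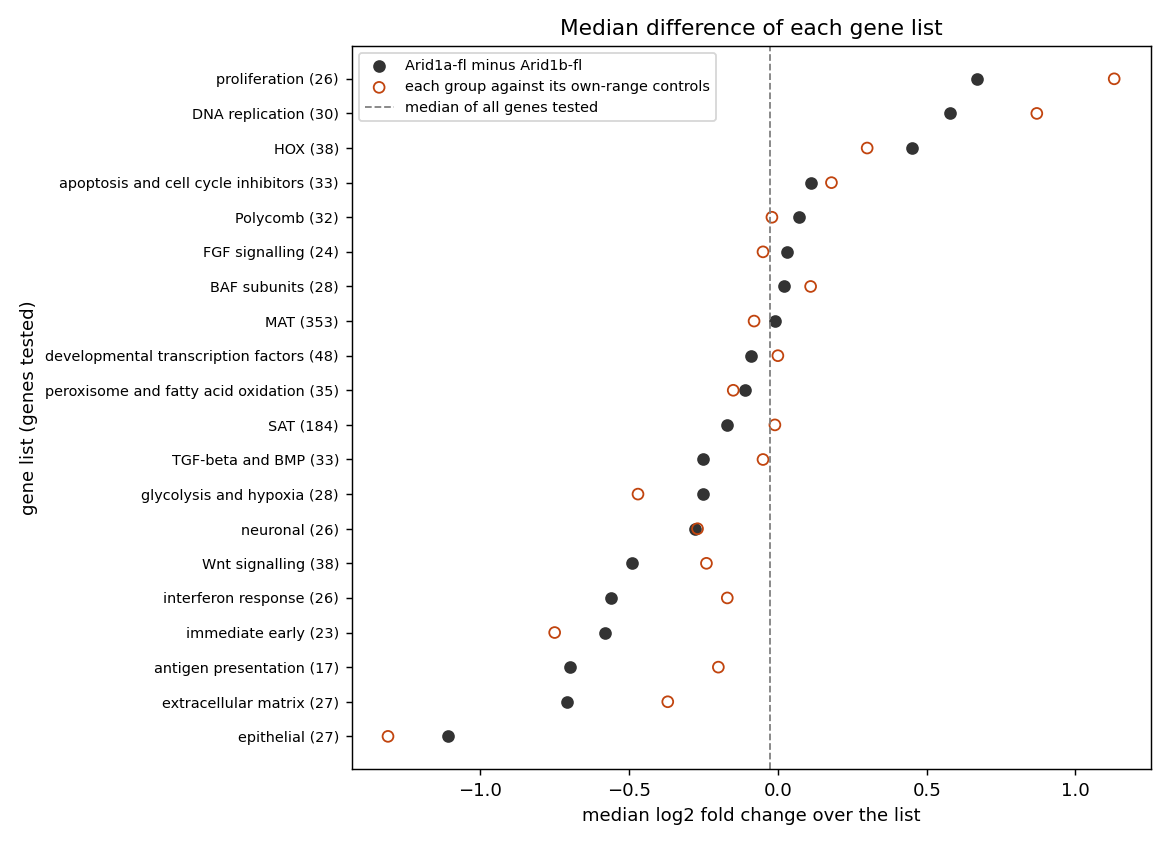
Median log2FC, Arid1a-fl minus Arid1b-fl, of the genes tested in each list (filled), and the same after each group was compared with control tumours of its own mouse number range (open); the dashed line is the median of all genes. The epithelial list lay at -1.11 and -1.31, the proliferation list at 0.67 and 1.13, and the MAT list at -0.01 without the adjustment.

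In bulk tissue fewer cells of a type and less RNA per cell cannot be told apart, so markers of other cells were read in the same tumours. Skeletal muscle markers varied most, with scores of -0.98 to 9.02 in Arid1a-fl and -0.67 to 11.01 in Arid1b-fl tumours, and 0 of 20 passed an unadjusted p under 0.05. All 20 had a log2FC below 0, with a median of -1.84, and -2.51 after range adjustment. Platelet and megakaryocyte markers, of which 5 of 12 were tested, were lower for 5 of 5 at that level with Alox12 called, and their median of -3.51 became -0.02 without Arid1b-fl tumour 5. That tumour held 440 CPM of Itgb3 and 269 CPM of Itga2b, against Arid1b-fl medians of 3.22 and 6.68 CPM. Erythroid markers, of which 6 of 8 were tested, had a median of -3.40, and 3.94 without the same tumour, in which Alas2 reached 2060 CPM. Medians were -0.52 for 12 macrophage, -1.69 for 7 lymphocyte, 0.46 for 4 granulocyte, -0.26 for 12 endothelial, -0.64 for 12 smooth muscle and pericyte and -1.15 for 11 fibroblast markers. They were -1.86 for 9 adipocyte, -0.26 for 8 Schwann cell and -0.78 for 4 keratinocyte markers. In these 9 lists 0 markers were called, between 0 and 2 of each were lower at an unadjusted p under 0.05, and 1 fibroblast marker was higher. Their part in the differences of the other lists was not tested.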

How the data were processed

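RNA of bulk fresh-frozen tumours was depleted of rRNA and made into directional paired-end libraries by the study's authors, who aligned reads to mm10 with STAR 2.7.11 and deposited raw counts per gene from featureCounts 1.6.3. The annotation release, strand setting and handling of reads with several matches are not given in the sources used here. The table has 56980 genes, of which 91.4% were given a symbol from GENCODE M21, and 9 columns of hSS1 tumours were not used.

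Counts of the 37 hSS2 libraries were filtered (filterByExpr), scaled by TMM and fitted with edgeR 4.0.16 (robust quasi-likelihood test, Benjamini-Hochberg adjusted p under 0.05) in R 4.3.3. DESeq2 1.42.0 was an alternative. Levels are TMM-scaled CPM, and list scores are mean log2 CPM with a prior count of 2. The script was tested on simulated data with 100 genes changed 2-fold and 100 changed 4-fold. Of these edgeR recovered 58% and 85%, and DESeq2 64% and 89%. Unchanged genes made up 8.92% of the simulated calls of edgeR and 17.7% of those of DESeq2. No 2 libraries of a group agreed within sampling noise (smallest chi-square per degree of freedom 18.6 over 56 pairs). Tumours were grouped by their titles, and p-values measure the spread between these tumours. Sequence comparisons used BLAST+ 2.17.0.

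Genes were named by rule: Arid1a and Arid1b, and up to 10 called protein-coding and 2 other called genes a direction (at least 1 in log2 fold change and a mean of 1 CPM). The rule also named up to 3 called list members a direction, and the members behind a list count of at most 5. Members behind larger counts at an unadjusted p under 0.05 were chosen after their values were seen. So were Ccna2, Magoh, Cpt2, Cep83, Itgb3, Itga2b, Alas2 and further BAF subunits. The tumours compared, lists and tests were chosen with earlier results of these data known. Some list members that the rule names are not reported here.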

Additional observations from a re-analysis of the deposited data

Results flagged for a closer look

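Of 110 sets of 8 values tested on the log2 scale, 15 had 1 tumour farther from the rest than Dixon's criterion at the 95% level allows. Chance flags about 1 in 20 sets, and gene levels are printed below as CPM. Among Arid1a-fl tumours the value apart on the log2 scale was low in each case. The high levels of Lrp8, Car12 and Ano3 in single Arid1a-fl tumours were not flagged on that scale. The flagged values were 1.39 CPM of Gm20075 in tumour 4, 0.0626 CPM of Gm15442 in tumour 5, 0.933 CPM of Cacna1b in tumour 8, and a smooth muscle and pericyte score of 2.58 in tumour 7.

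Arid1b-fl tumour 5 stood apart upward in 5 values. They were 160 CPM of Alox12, 71.1 CPM of Lrp8, a platelet and megakaryocyte score of 7.34, an erythroid score of 12.08, and an apoptosis and cell cycle score of 5.52. Arid1b-fl tumour 6 stood apart downward, with 297 CPM of Arid1a and a chromosome 4 shift of -0.59. In genes otherwise near 0, Arid1b-fl tumour 1 stood apart with 0.152 CPM of Gm9259, 0.152 CPM of Gm47437 and 1.14 CPM of Gm38699, and tumour 7 with 0.0709 CPM of Gm40847.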

How the results depend on the processing

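The 20 genes called between the groups became 215 with DESeq2, 12 with the 16 floxed libraries alone, 10 at an adjusted p under 0.01, and 0 after range adjustment, also 0 without control tumour 9. Single tumours left out gave 15 to 76, with 56 without Arid1a-fl tumour 6, 32 without Arid1b-fl tumour 2 and 76 without Arid1b-fl tumour 6. Leaving out Arid1b-fl tumours 4 and 5, chosen after seeing the data as were tumours 2, 5 and 6 and control tumour 9 in range adjustment, gave 11. The Arid1a difference kept its direction in each setting, from -1.07 to -0.91 without single tumours, and missed the threshold only after range adjustment (-0.61, and -0.74 without control tumour 9). That of Arid1b did not pass in any. The 38 genes called between control ranges became 396 with DESeq2, 99 with muscle score as a covariate, 0 without a filter on low counts and 0 at an adjusted p under 0.01. Without single control tumours they were 0 to 531, with 531 without tumour 11, 238 without tumour 10, 1 without 5 or 8, and 0 without 6, 7, 12 or 13. For the 19 other called genes, 111 of 519 values lost the call and 0 reversed. No paired analysis was possible because the 2 groups share no mouse number and the labels name no litter or pair. Low counts limit the copies near 0, and the causes of these changes were not tested.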
